A study of Mus musculus with 12 samples.

Results

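Microglia, the resident macrophages of the brain, are described here through 9 genes, measured by RNA-Seq in hippocampal CA1 tissue. Of these, 3 are genes of resting microglia (Cx3cr1, P2ry13 and Tmem119) and 6 are genes of reactive microglia (C1qa, C1qc, Tyrobp, Lyz2, Ctsd and Cst7). They are 9 of 10245 gene symbols in the expression table, each with 1 row. The genes were chosen by name, with the expression differences between the genotypes below already known, so those differences are given as a description and carry no test.

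TIP60 is a lysine acetyltransferase encoded by Kat5. The 6 Tip60 cKO mice carried CaMKCreERT2 and a homozygous floxed Tip60 gene (Tip60 f/f), and the 6 Control mice were Tip60 f/f littermates without Cre. The labels give all 12 as C57BL/6N males that received tamoxifen at 2 months of age and were sacrificed 10 days after the last injection. Because Cre was present only in Tip60 cKO mice, effects of CreERT2 itself and of Tip60 loss cannot be told apart. The driver recombines in postmitotic excitatory neurons of the forebrain and, according to the study, is not expressed in glia. Dorsal CA1 from both hemispheres was pooled into 1 library per mouse, and Kat5 itself was not analysed here.

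Resting microglia survey the tissue with motile processes and are marked by receptors for neuronal and nucleotide signals. When neurons are damaged or die, microglia typically lower this resting program and raise complement, lysosomal and phagocytic genes, with signals passing through TREM2 and its adaptor DAP12. CA1 tissue also holds neurons, astrocytes, oligodendrocytes, vessel cells and macrophages of the brain borders. In such bulk tissue, fewer cells of a type and less RNA per cell cannot be told apart.

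Levels are in FPKM, fragment numbers scaled to the length of the transcript and to the mapped fragments of the library. Depth, estimated from the step that 1 read adds to low values, was 33.9 ± 1.5 M reads in Tip60 cKO libraries and 35.6 ± 2.37 M reads in Control libraries (SD, n = 6 each). Tip60 cKO replicate 1 held 201 FPKM of Ttr, a choroid plexus transcript, against 0.911 FPKM or less in every other library. No pair of libraries shared more than 0.124% of identical values over 2415 tested genes. Across these genes, with the values as deposited, the median difference of log2(FPKM + 1) was 0.09 (Tip60 cKO minus Control). It was 0.04 after upper-quartile scaling and 0.01 after median-ratio scaling, so the member differences are given under all 3.

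Promoters are shown for 1 resting and 2 reactive genes, because motif letters of factors known in microglia or lysosomes lay in them. The mouse RefSeq table (GRCm38.p6) held a promoter for 6 of the 9 genes, namely Cx3cr1, P2ry13, C1qc, Lyz2, Ctsd and Cst7. The 250 bases before the start site are printed 5′ to 3′ on the strand of the gene, with motif letters in capitals. P2ry13 spans chr3:59210883-59211132, C1qc chr4:136892915-136893164 and Ctsd chr7:142387828-142388077, all on the minus strand.
P2ry13: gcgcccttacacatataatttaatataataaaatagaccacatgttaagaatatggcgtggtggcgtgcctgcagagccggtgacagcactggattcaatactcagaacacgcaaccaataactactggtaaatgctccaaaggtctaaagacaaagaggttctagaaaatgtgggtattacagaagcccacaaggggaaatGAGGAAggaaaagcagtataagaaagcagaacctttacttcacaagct
C1qc: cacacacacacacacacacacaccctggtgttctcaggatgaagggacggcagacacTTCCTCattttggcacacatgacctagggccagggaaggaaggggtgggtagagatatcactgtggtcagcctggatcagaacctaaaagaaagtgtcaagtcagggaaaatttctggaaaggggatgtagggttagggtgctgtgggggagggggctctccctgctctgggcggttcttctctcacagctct
Ctsd: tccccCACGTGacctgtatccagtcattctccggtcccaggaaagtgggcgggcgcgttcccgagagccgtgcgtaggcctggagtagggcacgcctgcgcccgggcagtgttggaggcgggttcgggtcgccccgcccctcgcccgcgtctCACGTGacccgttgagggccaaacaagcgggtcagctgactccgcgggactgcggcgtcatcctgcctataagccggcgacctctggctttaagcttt
The capitals in P2ry13 and C1qc mark GAGGAA, or TTCCTC on the other strand, the core letters bound by PU.1, the transcription factor that directs the myeloid lineage. The match began 48 bases before the start site in P2ry13 and 193 bases before it in C1qc, and 23.3% of 32851 mouse promoters of the same length held these letters on either strand. The annotated C1qc gene reaches chr4:136892936, inside the printed stretch, so its distance depends on the start site used. The capitals in Ctsd mark CACGTG, the E-box of many lysosomal gene promoters. Ctsd had this E-box at 245 and 98 bases before its start site, whereas 6.02% of all promoters held it at least once. Of the 6 member promoters, 2 held the PU.1 letters and 1 held the E-box. AP-1 letters (TGANTCA), searched on both strands, matched in 0 of the 6 member promoters and in 6.75% of all promoters. These matches are descriptions of the letters only.

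Among the resting genes, P2ry13, an ADP receptor of the P2Y family, showed the lowest level relative to Control. It measured 3.47 to 4.6 FPKM (median 4.38) in Tip60 cKO mice and 4.73 to 5.9 FPKM (median 5.4) in Control mice. Every Tip60 cKO mouse lay below every Control mouse, a pattern found in 8.32% of all tested genes. The ratio of mean P2ry13 FPKM was 0.781, and the difference of log2(FPKM + 1) was -0.30 ± 0.07 (SE, n = 6 each). P2ry13 lies within Med12l on the opposite strand, with no overlap of their annotated exons, so only reads from unspliced Med12l RNA could not be told apart from it without a stranded library.

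Tmem119, a transmembrane protein that marks microglia among brain macrophages, measured 7.23 to 9.26 FPKM (median 8.18) in Tip60 cKO mice and 8.97 to 10.3 FPKM (median 9.43) in Control mice. In 5 of 6 Tip60 cKO mice Tmem119 lay below the lowest Control mouse, and replicate 4 lay inside the Control range. The ratio of mean Tmem119 FPKM was 0.857, a log2(FPKM + 1) difference of -0.20 ± 0.05 (SE).

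Cx3cr1, the receptor through which microglia sense neuronal fractalkine, had nearly the same level in both genotypes. It measured 11.1 to 13.8 FPKM (median 12.9) in Tip60 cKO mice and 11.7 to 14.3 FPKM (median 13.2) in Control mice. The groups overlapped almost fully, with a log2(FPKM + 1) difference of -0.03 ± 0.06 (SE) that ranged from -0.07 to 0.00 when single mice were left out. After median-ratio scaling this difference of Cx3cr1 was -0.15. In the GENCODE annotation its exons overlap those of Gm33858 on the opposite strand. The 3 resting genes therefore did not move as a unit on the deposited scale. The ratio of P2ry13 to Cx3cr1 within a mouse averaged 0.325 ± 0.0285 in Tip60 cKO and 0.407 ± 0.0329 in Control mice (SD), and that of Tmem119 to Cx3cr1 averaged 0.636 ± 0.0433 in Tip60 cKO and 0.724 ± 0.0322 in Control mice (SD). In 5 of 6 Tip60 cKO mice the first of these ratios lay below the lowest Control mouse, and in 4 of 6 mice the second did.

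The reactive genes were all higher on average in Tip60 cKO mice, and in 5 of the 6 genes every Tip60 cKO mouse lay above every Control mouse. Over all tested genes the same lack of overlap was found in 25.2%. Because the genes were picked for this contrast, nothing is read from that count.

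C1qa and C1qc encode chains of C1q, which starts the classical complement cascade and tags synapses and debris for removal. C1qa measured 37.4 to 48.5 FPKM (median 43.7) in Tip60 cKO mice and 29.7 to 37.0 FPKM (median 32.2) in Control mice. C1qc measured 33.5 to 42.7 FPKM (median 39.4) in Tip60 cKO mice and 28.4 to 34.7 FPKM (median 30.2) in Control mice. The groups did not overlap for C1qa, and for C1qc only Tip60 cKO replicate 3, at 33.5 FPKM, fell below the highest Control mouse. Ratios of mean FPKM were 1.33 for C1qa and 1.26 for C1qc, with log2(FPKM + 1) differences of 0.40 ± 0.07 and 0.33 ± 0.07 (SE). The genes are neighbours on chromosome 4, and the ratio of C1qa to C1qc within a mouse was 1.12 ± 0.0307 in Tip60 cKO and 1.06 ± 0.0306 in Control mice (SD).

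Tyrobp encodes DAP12, the adaptor that carries signals from TREM2 and other myeloid receptors. It measured 24.6 to 35.4 FPKM (median 27.7) in Tip60 cKO mice and 18.8 to 22.7 FPKM (median 20.9) in Control mice. The highest value belonged to Tip60 cKO replicate 4, and the groups did not overlap. Mean Tyrobp FPKM was 1.36 times that of Control, a log2(FPKM + 1) difference of 0.42 ± 0.09 (SE).

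Lyz2, a lysozyme of macrophages and other myeloid cells, had the largest difference on the log2(FPKM + 1) scale among the 9 genes. It measured 4.95 to 7.34 FPKM (median 6.35) in Tip60 cKO mice and 3.68 to 4.21 FPKM (median 4.01) in Control mice. The lowest Tip60 cKO mouse, replicate 3, still lay above the highest Control mouse. The ratio of mean Lyz2 FPKM was 1.6, with a log2(FPKM + 1) difference of 0.56 ± 0.07 (SE). Lyz2 has a near-identical neighbour, Lyz1, at 0.624 ± 0.134 FPKM in Tip60 cKO and 0.442 ± 0.122 FPKM in Control mice (SD), so the split of reads between the paralogs is uncertain. Relative to C1qa in the same mouse, Lyz2 was 0.146 ± 0.00936 in Tip60 cKO and 0.122 ± 0.00787 in Control mice (SD), again without overlap.

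Ctsd encodes cathepsin D, an aspartic protease found in the lysosomes of most cell types. It was the most abundant of the 9 genes on the FPKM scale and measured 137 to 165 FPKM (median 150.0) in Tip60 cKO mice and 111 to 129 FPKM (median 122) in Control mice. The groups did not overlap, and the ratio of mean Ctsd FPKM was 1.25, a log2(FPKM + 1) difference of 0.31 ± 0.05 (SE). In the GENCODE annotation its exons overlap those of Gm49369, and reads of both cannot be told apart.

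Cst7 encodes cystatin F, an inhibitor of cysteine cathepsins that is a marker of disease-associated microglia. It had the largest ratio and the lowest level, at 0.395 to 0.647 FPKM (median 0.496) in Tip60 cKO mice and 0.0367 to 0.279 FPKM (median 0.128) in Control mice. The groups did not overlap, although Control replicate 2 stood well above the other Control mice. Mean Cst7 FPKM was 3.72 times that of Control, while the difference of log2(FPKM + 1), which understates low genes, was 0.41 ± 0.06 (SE). About 12.5 to 21.6 reads stood behind the value in a Tip60 cKO library and 1.14 to 10.2 reads in a Control library, so the size of this ratio is poorly fixed. Cst7 fell below the mean of 0.5 FPKM required for the fit across all genes.

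**Figure D1:**
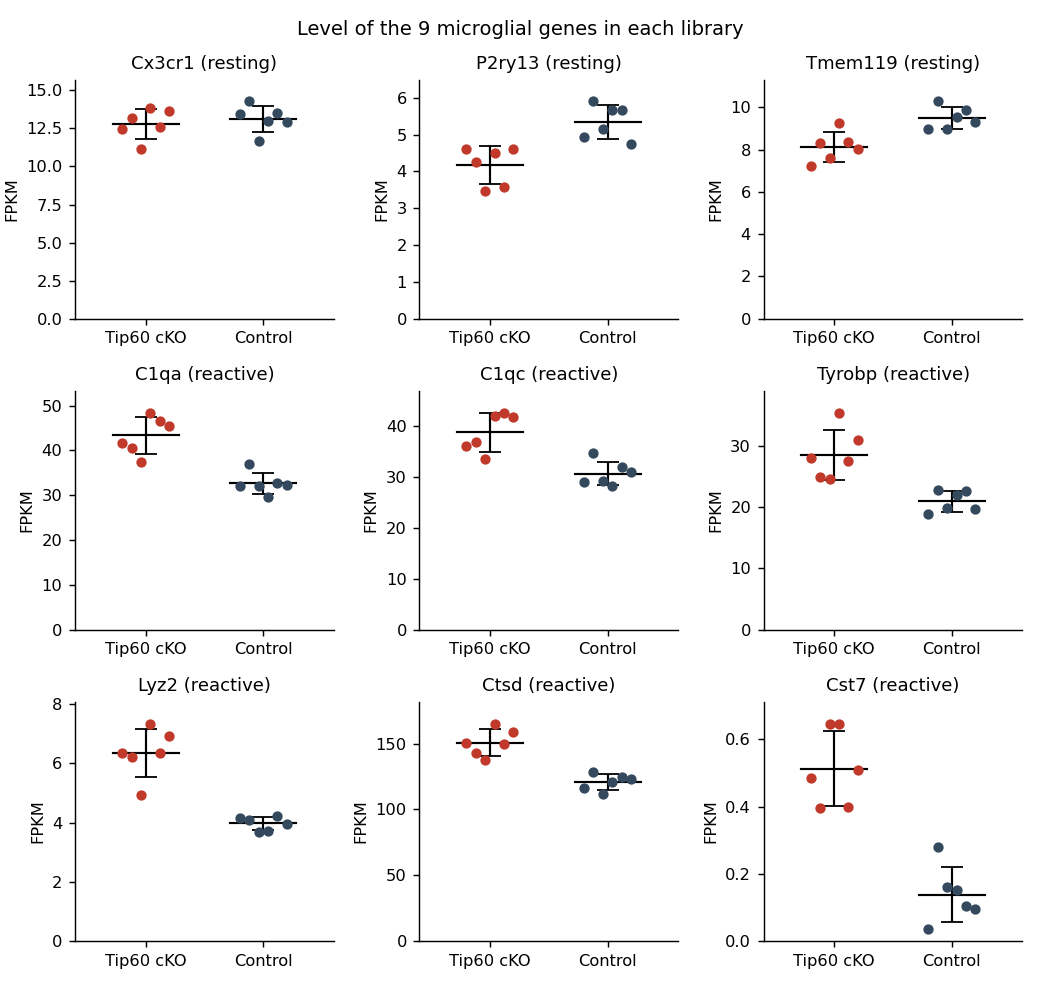
FPKM of each of the 9 genes in the 6 Tip60 cKO libraries (red, left) and 6 Control libraries (dark, right), with mean and SD as black lines. Cx3cr1 overlaps almost fully, P2ry13 lies lower in every Tip60 cKO mouse, and C1qa, Tyrobp, Lyz2, Ctsd and Cst7 lie higher in every Tip60 cKO mouse.

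The directions of the 8 genes other than Cst7 were the same under each scaling, but their sizes shifted together. After median-ratio scaling the log2(FPKM + 1) differences were -0.40 for P2ry13, -0.31 for Tmem119, 0.28 for C1qa, 0.21 for C1qc, 0.31 for Tyrobp, 0.46 for Lyz2 and 0.20 for Ctsd.

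**Figure D2:**
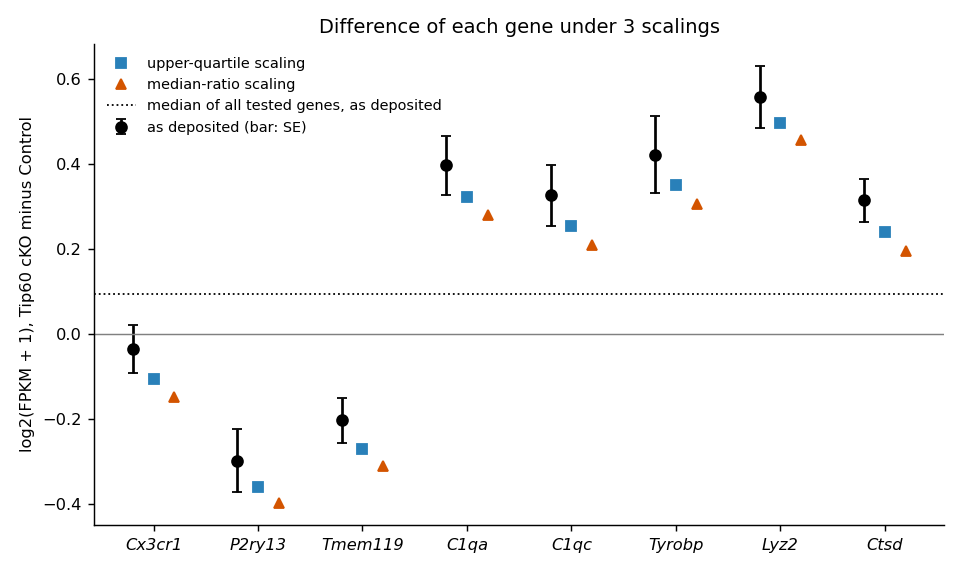
Difference of mean log2(FPKM + 1), Tip60 cKO minus Control, of 8 genes as deposited (black, SE bars) and after upper-quartile (squares) or median-ratio (triangles) scaling; the dotted line is the median of all tested genes at 0.09. Both scalings lower every point, so the resting genes lie further below 0 and the reactive genes closer to it.

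A ratio of genes within a mouse does not depend on how its library was scaled. The summed FPKM of the 6 reactive genes over that of the 3 resting genes was 10.8, 9.78, 10.7, 10.8, 11.1 and 10.8 in Tip60 cKO replicates 1 to 6, against 7.33, 7.47, 7.62, 7.26, 7.45 and 7.79 in Control replicates 1 to 6. Every Tip60 cKO mouse lay above every Control mouse. The mean ratio was 10.7 ± 0.464 in Tip60 cKO and 7.49 ± 0.193 in Control mice (SD, n = 6 each), that is, 1.43 times higher, with a difference of log2 ratios of 0.51 ± 0.03 (SE).

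The spread of this ratio was smaller than that of the single genes. Its coefficient of variation was 4.34% in Tip60 cKO and 2.58% in Control mice, whereas that of Tyrobp FPKM was 14.2% in Tip60 cKO and 8.1% in Control mice. Ctsd alone made up 56.2% of the reactive sum in Tip60 cKO mice and 57.8% in Control mice. Without Ctsd the ratio was 4.68 ± 0.274 in Tip60 cKO and 3.16 ± 0.119 in Control mice (SD). With geometric means, which weigh all genes equally and give more room to the low Cst7, it was 2.23 ± 0.134 in Tip60 cKO and 1.18 ± 0.122 in Control mice (SD). Both parts of the ratio differed, the reactive sum being 268 ± 22.02 FPKM in Tip60 cKO and 209 ± 11.4 FPKM in Control mice, and the resting sum 25.1 ± 1.86 FPKM in Tip60 cKO and 27.97 ± 1.65 FPKM in Control mice (SD). The separation follows from genes chosen in both directions of this contrast and is a description.

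**Figure D3:**
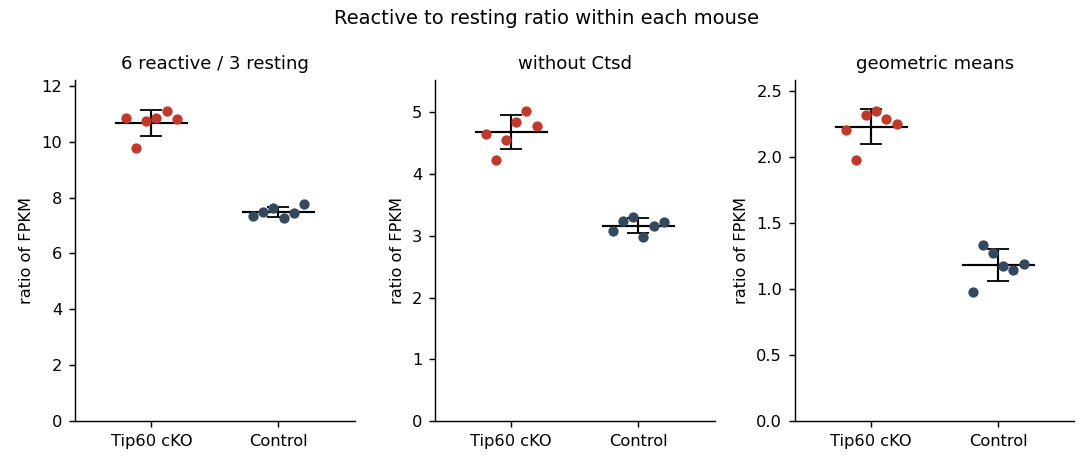
Ratio of reactive to resting genes in each mouse, Tip60 cKO (red, left) and Control (dark, right), from summed FPKM of 6 and 3 genes, from the same sums without Ctsd, and from geometric means; black lines are mean and SD. All 6 Tip60 cKO mice lie above all 6 Control mice in each panel, and replicate 2 is the lowest Tip60 cKO mouse at 9.78 in the first.

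The choice of genes used the difference between genotypes and not the spread within one, so covariation within genotype was tested. For each gene the genotype mean of log2(FPKM + 1) was removed, and all 36 pairs were correlated over the 12 mice with permutation within genotype. Pearson r was positive in 34 of 36 pairs (median 0.668), and 10 pairs had an adjusted p under 0.05. The pair C1qa and C1qc was closest (r = 0.949, permutation p = 0.0001, adjusted p = 0.0036; Spearman rho = 0.951, p = 9e-05, adjusted p = 0.00324), and r was 0.94 without the 2 mice farthest from the median. Tyrobp and Ctsd also varied together (r = 0.886, permutation p = 0.00067, adjusted p = 0.00864; rho = 0.888, p = 0.00113, adjusted p = 0.0203), with r = 0.779 without the 2 farthest mice. Across the classes, the resting gene Cx3cr1 and the reactive gene Lyz2 had r = 0.857 (permutation p = 0.00072, adjusted p = 0.00864; rho = 0.727, p = 0.0157, adjusted p = 0.0629) and 0.718 without the 2 farthest mice.

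Of the 18 pairs of a resting with a reactive gene, 17 had a positive r, and 3 had an adjusted p under 0.05. The median r was 0.65 over these 18 pairs, 0.7 over the 15 reactive pairs and 0.636 over the 3 resting pairs. The 8 pairs with Cst7 had a median r of 0.244 and 0 adjusted p under 0.05 (0 of 8 also at an unadjusted permutation p under 0.05). Among the Tip60 cKO mice, replicate 4 had the highest level of 7 of 9 genes and replicate 3 the lowest level of 7, and among Control mice replicate 2 had the highest level of 8. The number of pairs with an adjusted p under 0.05 depended on single mice, with 16 pairs without Tip60 cKO replicate 2, 3 pairs without Tip60 cKO replicate 3, 4 or 6, and 6 pairs without Control replicate 5 or 6. By Spearman rho 6 pairs had an adjusted p under 0.05. Library scaling is shared by all genes of a mouse, and after median-ratio scaling 3 pairs had an adjusted p under 0.05 and the median r was 0.6.

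**Figure D4:**
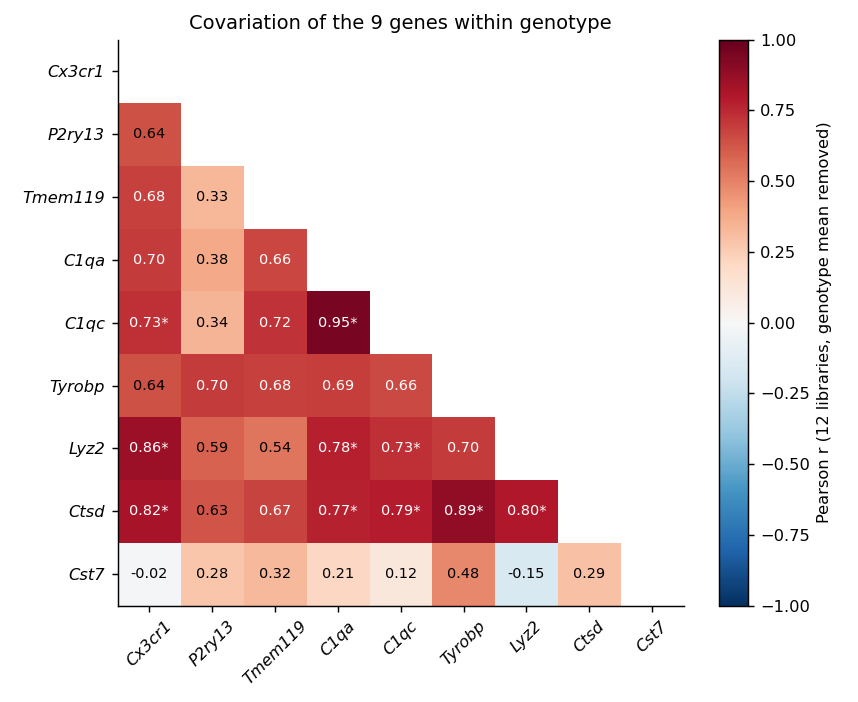
Pearson r of each pair of the 9 genes over 12 mice after removing the genotype mean of log2(FPKM + 1); a star marks an adjusted permutation p under 0.05. C1qa and C1qc reach 0.95, and the row of Cst7 is palest, between -0.15 and 0.48.

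The mean of 1685 tested genes reached 2 FPKM, and the members among them were left out of the ranking. The 5 most like the reactive genes within genotype included 4632428N05Rik (mean r 0.837 with the 5 tested reactive genes), X99384 (0.82), Msn (0.8) and Aldh5a1 (0.798). Most like the resting genes were Msn (mean r 0.753 with the 3 genes), Aldh5a1 (0.732), 1810037I17Rik (0.73), Amotl1 (0.724) and Rcn2 (0.715). The median over all genes compared was 0.237 for the reactive and 0.24 for the resting genes. Each value covers 12 mice and has no test. Msn, which encodes the membrane linker moesin, averaged 7.78 ± 0.508 FPKM in Tip60 cKO and 7.03 ± 0.394 FPKM in Control mice (SD), and Aldh5a1, an enzyme of GABA breakdown, averaged 15.8 ± 0.755 FPKM in Tip60 cKO and 17.2 ± 0.375 FPKM in Control mice (SD).

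Other genes of the same pathways were taken from 9 microglial lists, with the 9 genes left out, and tested with limma. A call required an adjusted p under 0.05 and over 1.2-fold in FPKM + 1, which for low genes is a smaller fold than that of FPKM. Over all tested genes 19.9% rose and 6.5% fell, with a median difference of log2(FPKM + 1) of 0.09. Of the 70 tested genes of the lists, 12 rose (17.1%) and 2 fell (2.86%), with a median of 0.10. After median-ratio scaling 8 rose and 6 fell, where 11.8% of all genes rose and 11.5% fell. As deposited, both shares were below those of all genes.

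Resting (homeostatic) microglia genes other than the 3 above mostly did not pass the test. Listed genes were matched by symbol alone, so any gene held under another symbol was missed, and 7 of 29 other listed genes were found. Of these 7, all tested, 2 rose and 0 fell in limma, where 19.9% of all tested genes rose and 6.5% fell. The median log2(FPKM + 1) difference of the 7 was 0.02, while 6 had an unadjusted p under 0.05. Gpr84, a receptor for medium-chain fatty acids that is known to be induced in activated microglia, rose to 0.896 ± 0.224 FPKM in Tip60 cKO, against 0.529 ± 0.0707 FPKM in Control mice (SD, limma adjusted p = 0.0024). This call was lost after median-ratio scaling, where 0 genes of this list rose and 1, Selplg, fell. Gpr84 also fell below the limit of 1.2-fold in FPKM + 1 without Tip60 cKO replicate 2, with a log2(FPKM + 1) difference of 0.26. Over all mice its ratio of mean FPKM was 1.7. Selplg, a P-selectin ligand, averaged 9.55 ± 0.747 FPKM in Tip60 cKO and 11.0 ± 0.565 FPKM in Control mice (SD, limma adjusted p = 0.0055). As deposited, Selplg missed only the 1.2-fold limit. Olfml3, an extracellular matrix glycoprotein, averaged 8.96 ± 1.03 FPKM in Tip60 cKO and 8.78 ± 0.626 FPKM in Control mice (SD, limma adjusted p = 0.801).

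The disease-associated microglia list held 14 tested genes beside the members, of which 6 rose and 0 fell (median log2(FPKM + 1) difference 0.22). Over all tested genes 19.9% rose and 6.5% fell. After median-ratio scaling 6 rose and 1 fell, with a median of 0.11, where 11.8% of all tested genes rose and 11.5% fell. The chemokine Ccl6 measured 1.63 to 4.19 FPKM (median 2.45) in Tip60 cKO mice and 0.644 to 1.24 FPKM (median 0.942) in Control mice. Groups did not overlap, and the limma difference of log2(FPKM + 1) was 0.86 ± 0.13 (SE, adjusted p = 8.01e-05). Ccl3, a chemokine of activated microglia, measured 0.92 to 1.27 FPKM in Tip60 cKO mice and 0.128 to 0.338 FPKM in Control mice (limma difference 0.73 ± 0.06, adjusted p = 1.01e-07). Its neighbour Ccl4 averaged 0.898 ± 0.331 FPKM in Tip60 cKO and 0.205 ± 0.124 FPKM in Control mice (SD, limma adjusted p = 9.67e-05). The Control means of Ccl3 (0.26 FPKM) and Ccl4 lay under the 0.5 FPKM required for the fit. These genes entered it only through their Tip60 cKO level, so their calls are description. When a mean of 2 FPKM was required, 2 genes of this list rose. Cd52, a small surface glycoprotein of leukocytes, averaged 3.22 ± 0.826 FPKM in Tip60 cKO and 1.76 ± 0.57 FPKM in Control mice (SD, limma adjusted p = 0.00445). Ctsz, described with the lysosomal genes below, rose as well. Of the genes that were not called, Cd9 averaged 42.1 ± 4.11 FPKM in Tip60 cKO and 35.3 ± 3.46 FPKM in Control mice and Timp2 averaged 36.7 ± 2.49 FPKM in Tip60 cKO and 33.9 ± 3.13 FPKM in Control mice (SD). Cd9 passed both limits of the call when any 1 of Tip60 cKO replicates 2, 3 and 5 or Control replicate 2 was left out. Axl and Ank, named after their values were seen, did not reach 1.2-fold. Every Tip60 cKO mouse lay above every Control mouse for Axl (limma adjusted p = 0.000462) and below every Control mouse for Ank (limma adjusted p = 0.00127).

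Genes that all microglia and myeloid cells share mostly did not pass the test. Of 13 tested, 1 rose and 0 fell (median log2(FPKM + 1) difference 0.05), where 19.9% of all tested genes rose and 6.5% fell. Fcgr3, an activating Fc receptor, rose to 8.34 ± 0.529 FPKM in Tip60 cKO, against 6.44 ± 0.498 FPKM in Control mice (SD, limma adjusted p = 7.55e-05), a call lost after median-ratio or upper-quartile scaling. Laptm5, a lysosomal membrane protein of haematopoietic cells, averaged 13.98 ± 1.5 FPKM in Tip60 cKO and 13.6 ± 1.16 FPKM in Control mice (SD). Ctss, a cathepsin abundant in microglia, averaged 43.0 ± 3.73 FPKM in Tip60 cKO and 36.5 ± 3.04 FPKM in Control mice (SD) and did not reach 1.2-fold, although it did without Tip60 cKO replicate 3 or Control replicate 2.

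Around the complement and DAP12 genes, 2 other genes rose, 1 of 5 tested and 1 of 9 tested, where 19.9% of all tested genes rose. Of 5 complement genes tested, C3ar1, the receptor for the C3a fragment, rose to 0.676 ± 0.107 FPKM in Tip60 cKO, against 0.391 ± 0.0585 FPKM in Control mice (SD, limma adjusted p = 0.000348). This call was lost after median-ratio or upper-quartile scaling and without Tip60 cKO replicate 4 or Control replicate 3, 5 or 6. The log2(FPKM + 1) differences then lay between 0.23 and 0.26, below the limit in FPKM + 1. Over all mice, as deposited, the ratio of mean C3ar1 FPKM was 1.73. The Control mean of C3ar1 lay under the 0.5 FPKM required for the fit, which C3ar1 entered only through its Tip60 cKO level. Of 9 genes of DAP12 receptors and signalling, Syk, the kinase recruited by phosphorylated DAP12, rose. Syk measured 1.71 to 2.36 FPKM (median 1.96) in Tip60 cKO mice and 0.662 to 0.912 FPKM (median 0.777) in Control mice. The groups were far apart, with a limma difference of log2(FPKM + 1) of 0.74 ± 0.05 (SE, adjusted p = 4.04e-08). Fcer1g, the Fc receptor adaptor related to DAP12, averaged 11.5 ± 1.59 FPKM in Tip60 cKO and 10.1 ± 0.377 FPKM in Control mice (SD), and Lyn, a Src-family kinase, 2.32 ± 0.227 FPKM in Tip60 cKO and 2.19 ± 0.162 FPKM in Control mice (SD).

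Of 19 other lysosomal genes tested, 1 rose and 2 fell, where 19.9% of all tested genes rose and 6.5% fell. The median log2(FPKM + 1) difference of the 19 was 0.10, close to that of all genes, while 12 of 19 had an unadjusted p under 0.05. The number that rose was 4 when Tip60 cKO replicate 3 was left out, 3 when Control replicate 2 was left out or with a pseudocount of 0.1, and 2 when Tip60 cKO replicate 1, 4 or 5 or Control replicate 5 was left out. Ctsz, a cathepsin of myeloid cells, measured 24.7 to 29.1 FPKM in Tip60 cKO mice and 18.3 to 22.6 FPKM in Control mice (limma difference 0.48 ± 0.05, adjusted p = 2.94e-06). Gaa, the acid glucosidase that degrades glycogen, fell to 52.5 ± 3.78 FPKM in Tip60 cKO, against 73.5 ± 5.39 FPKM in Control mice (SD, limma adjusted p = 3.63e-06). Arsb, a lysosomal sulfatase, fell to 16.8 ± 0.552 FPKM in Tip60 cKO, against 27.7 ± 1.6 FPKM in Control mice (SD, limma adjusted p = 2.67e-09). Lamp1, a lysosomal membrane protein, averaged 111 ± 4.25 FPKM in Tip60 cKO and 97.6 ± 3.32 FPKM in Control mice (SD) and did not reach 1.2-fold. Among the cystatins other than Cst7, 0 of 2 were called, with 2 of 2 at an unadjusted p under 0.05. Cst3, cystatin C, averaged 1559 ± 82.8 FPKM in Tip60 cKO and 1366 ± 87.1 FPKM in Control mice, and Cstb, cystatin B, 20.2 ± 1.07 FPKM in Tip60 cKO and 23.2 ± 1.15 FPKM in Control mice (SD). Cstb passed both limits as lower after median-ratio scaling, at -0.31, and after upper-quartile scaling, at -0.27.

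Fractalkine, purinergic and P2Y signalling held the largest single difference of the 9 microglial lists. Adora3, an adenosine receptor known from microglia in mouse, measured 2.5 to 3.16 FPKM (median 2.82) in Tip60 cKO mice and 0.62 to 0.831 FPKM (median 0.693) in Control mice. Adora3 thus moved opposite to the ADP receptor P2ry13, with mean FPKM 3.97 times that of Control and a limma difference of log2(FPKM + 1) of 1.16 ± 0.05 (SE, adjusted p = 3.09e-10). The other 4 tested genes of the list were not called, among them Gpr17 at 13.5 ± 0.995 FPKM in Tip60 cKO and 11.4 ± 0.939 FPKM in Control mice and Adora2b at 1.78 ± 0.297 FPKM in Tip60 cKO and 1.81 ± 0.233 FPKM in Control mice (SD).

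Signals that sustain or restrain microglia were little different where they could be tested. Of 6 tested genes 1 rose and 0 fell, where 19.9% of all tested genes rose and 6.5% fell. Csf1, a ligand of the receptor on which microglia depend, averaged 4.25 ± 0.385 FPKM in Tip60 cKO and 4.32 ± 0.508 FPKM in Control mice (SD), and Il10rb, a receptor chain for IL-10 family cytokines, averaged 3.25 ± 0.727 FPKM in Tip60 cKO and 3.74 ± 0.217 FPKM in Control mice (SD). Il34, the other ligand of that receptor, is listed at 0 in all 6 Tip60 cKO libraries and at 13.3 to 16.3 FPKM in the Control libraries. Exact zeros through a whole genotype also occur for Snap29, Mettl5 and Mtg1, genes used by most cells, which are listed at 0 in all 6 Control libraries, so such a zero can be a failed estimate. Read counts listed with the study, not used here, show Il34 reads in both genotypes. Il34 was therefore not tested, a choice made after these values were seen, and its listed 0 is not read as a loss.

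**Figure D5:**
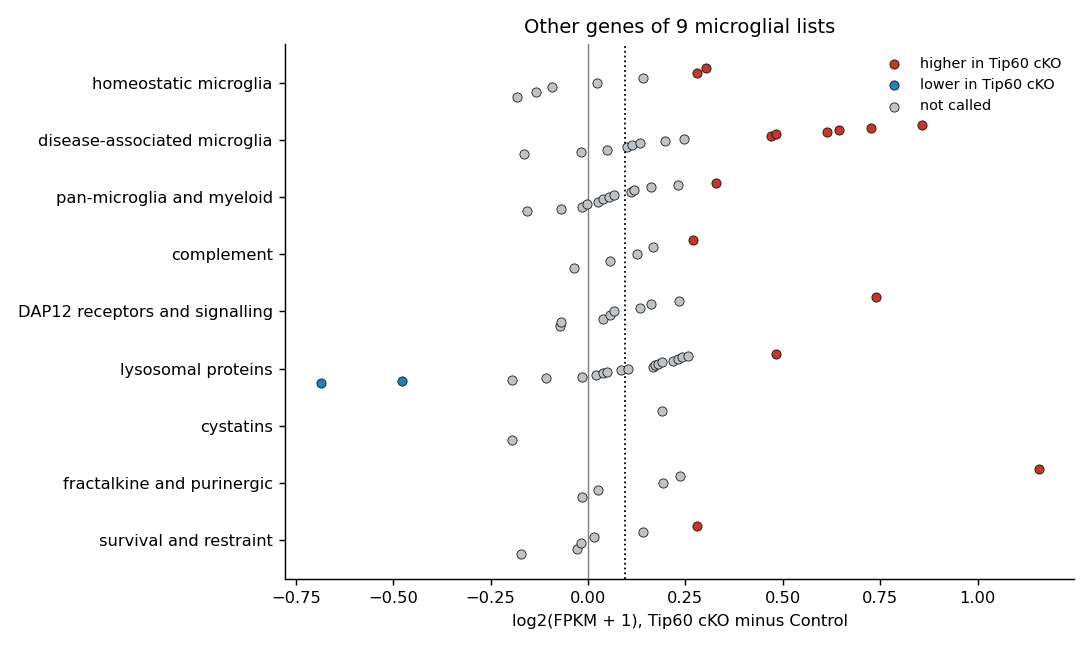
Difference of mean log2(FPKM + 1), Tip60 cKO minus Control, for each tested gene of 9 microglial lists without the 9 described genes; red marks genes called higher in Tip60 cKO, blue lower, grey not called, and the dotted line the median of all tested genes (0.09). Most genes lie within the uncalled range, Adora3 is farthest to the right at 1.16 and Arsb farthest to the left at -0.68.

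Summed levels of marker lists were compared with an exact two-sided permutation test of 6 against 6 mice, adjusted over 10 lists. As deposited, 4 of the 10 differed at an adjusted p under 0.05, and 3 did after median-ratio scaling. The part of these cells in the differences of the microglial genes was not tested. Markers of border-associated macrophages, cells that also express C1q genes, Tyrobp and Lyz2, summed over 11 of 14 listed genes to 3.35 to 4.48 FPKM (mean 4.11 ± 0.413) in Tip60 cKO mice and 2.3 to 3.4 FPKM (mean 2.98 ± 0.432) in Control mice (exact p = 0.00649, adjusted p = 0.0216). The levels were low, 5 of the 11 genes staying under 0.5 FPKM in every library. Their defining scavenger receptor Mrc1 averaged 0.675 ± 0.101 FPKM in Tip60 cKO and 0.577 ± 0.0492 FPKM in Control mice, and Pf4 0.706 ± 0.188 FPKM in Tip60 cKO and 0.736 ± 0.28 FPKM in Control mice (SD), neither called. Ccl24 averaged 0.0667 FPKM in Tip60 cKO and 0.0705 FPKM in Control mice. The remaining genes of the list averaged higher in Tip60 cKO mice, but except for Lyve1 every measured gene of the list overlapped between genotypes. Named here after their values were seen are 3 of the genes that averaged higher. Lyve1, a hyaluronan receptor of border macrophages and lymphatic vessels, measured 0.292 to 0.587 FPKM in Tip60 cKO and 0.0808 to 0.146 FPKM in Control mice, without overlap. F13a1, a coagulation factor subunit, averaged 0.538 ± 0.101 FPKM in Tip60 cKO and 0.332 ± 0.0541 FPKM in Control mice (SD), and Cbr2, a carbonyl reductase, 0.73 ± 0.174 FPKM in Tip60 cKO and 0.457 ± 0.115 FPKM in Control mice (SD). Lyve1 and F13a1 were too low for the limma fit, and Cbr2 did not reach 1.2-fold on the scale of that fit.

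Markers of monocytes and neutrophils, which also express Lyz2 and Tyrobp, summed over 17 of 22 listed genes to 8.68 to 10.9 FPKM in Tip60 cKO mice and 8.54 to 10.2 FPKM in Control mice (exact p = 0.136, adjusted p = 0.195). Of the 17 genes, 12 stayed under 0.5 FPKM in every library. Ccr2, the chemokine receptor that defines infiltrating monocytes, lay between 0.00922 and 0.0672 FPKM in Tip60 cKO mice and between 0.0262 and 0.0612 FPKM in Control mice. Lymphocyte markers stayed under 0.5 FPKM in every library for all 13 genes measured.

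Meningeal and fibroblast markers summed over 10 of 14 listed genes to 37.8 to 50.5 FPKM in Tip60 cKO and 28.8 to 41.4 FPKM in Control mice (exact p = 0.00433, adjusted p = 0.0216). The mean sum was 47.2 FPKM in Tip60 cKO and 34.4 FPKM in Control mice. Mgp, a matrix protein of vessels and meninges, rose to 20.7 ± 2.07 FPKM in Tip60 cKO, against 13.1 ± 2.13 FPKM in Control mice (SD, limma adjusted p = 8.48e-05). Of 8 tested genes of this list, 2 rose, Mgp and Dcn, and 6 were not called, where 19.9% of all tested genes rose. The ratio of mean FPKM was 0.998 for Lum and 1.00 for Ogn, while the other uncalled genes averaged higher in Tip60 cKO mice. Endothelial and mural markers summed over 5 of 18 listed genes to 57.5 to 71.6 FPKM in Tip60 cKO and 52.9 to 60.1 FPKM in Control mice (exact p = 0.00866, adjusted p = 0.0216). After median-ratio scaling this difference was lost, with a mean sum of 60.5 in Tip60 cKO and 59.0 in Control mice (exact p = 0.716, adjusted p = 0.732). Their 1 called gene, Acta2, a smooth muscle actin, averaged 7.02 ± 1.15 FPKM in Tip60 cKO and 5.65 ± 0.871 FPKM in Control mice (SD, limma adjusted p = 0.0348), and the call was lost after median-ratio or upper-quartile scaling and without any 1 of Tip60 cKO replicates 2, 5 and 6 and Control replicates 1 to 4. Neuronal markers went the other way, summing over 5 of 21 listed genes to 205 to 241 FPKM in Tip60 cKO and 256 to 281 FPKM in Control mice (exact p = 0.00216, the smallest this design allows, adjusted p = 0.0216). Single neuronal genes differed in direction, Gng3, a G protein subunit of neurons, falling to 29.4 ± 2.76 FPKM in Tip60 cKO, against 77.1 ± 3.24 FPKM in Control mice, and Pou3f1, a transcription factor, rising to 55.0 ± 5.87 FPKM in Tip60 cKO, against 28.9 ± 2.31 FPKM in Control mice (SD, limma adjusted p = 7.59e-11 and 7.18e-08).

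Oligodendrocyte markers summed over 3 of 15 listed genes to 150 ± 7.18 FPKM in Tip60 cKO and 129 ± 17.2 FPKM in Control mice (SD, exact p = 0.026, adjusted p = 0.0519), and astrocyte markers over 6 of 20 to 29.8 ± 5.13 FPKM in Tip60 cKO and 26.1 ± 1.3 FPKM in Control mice (SD, exact p = 0.117, adjusted p = 0.195). Choroid plexus markers other than Ttr were low, and the list summed to 205 FPKM in Tip60 cKO replicate 1 and to 1.59 FPKM or less elsewhere. Without Tip60 cKO replicate 1 the 9 genes kept the direction of their differences, and the log2 difference of the reactive to resting ratio was 0.51.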

How the data were processed

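RNA was measured in 12 CA1 libraries, 6 Tip60 cKO and 6 Control, prepared from 1 μg of total RNA with the TruSeq RNA kit. According to the submitters' processing notes, mouse build mm9 was used with TopHat2 2.0.8, bedtools 2.16.2, CASAVA 1.8.2 and FastQC 0.10.0. The sources used here do not give the program and annotation behind the FPKM or any use of strand. The authors deposited FPKM (10383 rows), already normalised for gene length and depth, so no count test was run. Counts listed with the study were seen but not used. Depth (31.6 to 38.1 M reads) was estimated from the spacing of low values in 2017 genes with 1 annotated transcript.

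Repeat rows (100) were dropped and rows of 1 symbol summed. Set aside were 532 small RNAs, 2414 symbols with only zeros, and 42 that mixed exact zeros with a nonzero median of 1 FPKM or more; 3 with near-zero values throughout 1 genotype were kept. Of the 42, 10 are at 0 throughout 1 genotype, Il34 among them, and this handling was chosen after the values, and the reads listed for Il34 with the study, were seen. The 2415 genes averaging 0.5 FPKM or more were fitted on log2(FPKM + 1) with limma 3.58.1 in R 4.3.3 (trend, robust). They were Benjamini-Hochberg adjusted over all of them and called at adjusted p under 0.05 and over 1.2-fold in FPKM + 1. The fit was tested on simulated data. Differences of the 9 genes are untested. Correlations used 100000 permutations within genotype, and marker sums all 924 splits, in Python 3.11.15 with scipy 1.17.1.

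The members and lists were chosen with earlier results of these data known. Named were the 9 genes and, of each list, up to 4 called genes by size and 2 uncalled genes by level. The 5 genes most like each class within genotype and Ttr were named too. Lyz1, Lyve1, F13a1, Cbr2, Ccl24, Axl, Ank, Ccr2, Il34, Snap29, Mettl5 and Mtg1 were added after their values were seen. A few results that this rule names are not reported here. Motifs and promoters came from RefSeq. Alternatives were another pseudocount (0.1), filter (none or 2 FPKM), scaling and prior, Spearman rho, other forms of the ratio and leaving out each mouse.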

Additional observations from a re-analysis of the deposited data

Results flagged for a closer look

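In 40 sets of 6 libraries (9 genes, their ratio and 10 marker sums in each genotype), 4 held 1 library far from the other 5 (by the size of the gap over the range), where chance flags about 1 in 20 sets. The reactive to resting ratio was 9.78 in Tip60 cKO replicate 2, against 10.7 in the next lowest Tip60 cKO mouse, and still lay above every Control mouse. Choroid plexus markers summed to 205 FPKM in Tip60 cKO replicate 1, against 1.59 FPKM in the next library. Meningeal and fibroblast markers summed to 37.8 FPKM in Tip60 cKO replicate 3, against 46.3 FPKM in the next, and this mouse also had the lowest level of 7 of the 9 genes within its genotype. Lymphocyte markers summed to 0.664 FPKM in Control replicate 2, against 0.852 FPKM in the next, a level near 0 in every library.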

How the results depend on the processing

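No paired analysis was possible because the labels give the mice no shared numbers, and replicate numbers follow accession order. The count of other microglial genes that rose was 12, and 4 when a mean of 2 FPKM was required. It ranged from 11 to 17 when single mice were left out. The count that fell was 2, and 6 after median-ratio scaling, where 8 rose. When genes at 0 throughout 1 genotype were kept, an alternative added after seeing the data, 12 rose and 3 fell, the added gene being Il34, whose listed 0 can be a failed estimate. Member differences that moved by more than their spread were those after median-ratio scaling of Cx3cr1 (-0.15), Tmem119 (-0.31) and Ctsd (0.20), and that of Cst7 with a pseudocount of 0.1 (1.42); the other 131 of 135 alternatives moved less. The log2 difference of the reactive to resting ratio was 0.92 with geometric means, and 0.50 to 0.54 without single mice. Pairs with an adjusted p under 0.05 numbered 6 by Spearman rho, 3 after median-ratio scaling and 3 to 16 without single mice. Leaving out Tip60 cKO replicate 1, also added after seeing the data, changed no call among the 10 marker sums, and median-ratio scaling of those sums, added likewise, lost that of endothelial and mural cells (a difference of 1.53, adjusted p = 0.732). Depth limits Cst7, with 1.14 to 21.6 reads per library.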
